A study of Homo sapiens with 18 samples.

Results

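The clustered protocadherins are cell surface proteins of the cadherin superfamily, encoded by alpha, beta and gamma gene clusters that lie one after another on human chromosome 5. The 54 members described here were all rows of a gene table with 37550 rows whose symbols are those of the alpha cluster (PCDHA and PCDHAC, 16 rows), the beta cluster (PCDHB, 16 rows) or the gamma cluster (PCDHGA, PCDHGB and PCDHGC, 22 rows). The rule reads symbols and no measured value.

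Messenger RNA was measured in 18 libraries of wild-type H1, an established human pluripotent stem cell line, with 2 biological replicates in each of 9 groups. Undifferentiated cells at day 0 are called hPSC. Every other group spent day 1 in a definitive ectoderm medium, which held the TGF-beta receptor inhibitor A8301 at 1 µM, the MEK inhibitor trametinib at 250 nM, the porcupine inhibitor C59 at 1 µM and the BMP receptor inhibitor LDN193189 at 100 nM. Cells collected at day 2 were anterior neural ectoderm (aNE) or posterior neural ectoderm (pNE), and cells of both origins were carried to day 4 in a forebrain (aNE_T, pNE_T), midbrain (aNE_M, pNE_M) or hindbrain (aNE_H, pNE_H) medium. On day 2 both origins received A8301 at 1 µM, LDN193189 at 100 nM and the cell survival compound thiazovivin at 1 µM. The aNE medium also held C59 at 1 µM, whereas pNE cells received TTNPB, which activates retinoic acid receptors, at 50 nM, XAV939, which blocks tankyrase, at 1 µM and the growth factor FGF2 at 20 ng/mL. The plating density was 37500 cells per cm2 for the day-2 samples. For day 4 it was 75000 with aNE and 150000 with pNE, so at day 4 origin and plating density cannot be told apart. Changes from day 2 to day 4 likewise cannot be told apart from the higher plating density at day 4. The full recipes of the day-4 media are not used here. All libraries come from 1 cell line. The p-values reflect only the spread between replicate cultures, pooled over the 9 groups and moderated across genes.

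Each alpha and gamma protein is made from a variable first exon, which has its own promoter and encodes the extracellular and transmembrane parts, joined to constant exons shared by the whole cluster. Beta genes have a single coding exon and no shared constant exons. In many neurons a few variable promoters are chosen in each cell, apparently at random, and homophilic contact between the chosen proteins serves self-recognition of branches. The C-type members (PCDHAC1, PCDHAC2, PCDHGC3, PCDHGC4 and PCDHGC5) lie at the ends of the alpha and gamma clusters and are regulated apart from that choice, and gamma members are also known for a role in neuronal survival. Most promoters carry a conserved element with the core letters CGCT, within a stretch that the insulator protein CTCF binds.

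In the GENCODE v29 annotation of GRCh38 the alpha members span chr5:140786136-141012347, the beta members chr5:141051135-141249365 and the gamma members chr5:141330571-141512981, all on the plus strand. Other than the pseudogene PCDHA14, alpha and gamma members share the last exons of their cluster, so their gene bodies overlap. The promoter sequences below, from RefSeq on GRCh38.p14, are shown because members with very different levels, such as PCDHA11 at 12.7 TPM or more and PCDHA8 at 0.994 TPM or less in every library, hold the letters CGCT. Each run holds 40 bases of the plus strand, which is the coding strand, written 5′ to 3′, with CGCT in capitals. A match of these letters is a description and not a located binding site.
PCDHA11: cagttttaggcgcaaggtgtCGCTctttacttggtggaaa
PCDHA8: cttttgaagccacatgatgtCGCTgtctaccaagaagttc
PCDHA6: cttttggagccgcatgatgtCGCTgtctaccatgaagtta
PCDHAC2: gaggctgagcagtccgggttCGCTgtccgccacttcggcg
PCDHB2: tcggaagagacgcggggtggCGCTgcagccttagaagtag
PCDHGB6: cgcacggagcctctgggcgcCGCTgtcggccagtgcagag
PCDHGC3: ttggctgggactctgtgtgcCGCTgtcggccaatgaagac
PCDHGC4: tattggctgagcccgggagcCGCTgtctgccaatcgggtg

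Their positions are PCDHA11 chr5:140868879-140868918, PCDHA8 chr5:140841126-140841165, PCDHA6 chr5:140827893-140827932, PCDHAC2 chr5:140966361-140966400, PCDHB2 chr5:141094540-141094579, PCDHGB6 chr5:141407920-141407959, PCDHGC3 chr5:141475876-141475915 and PCDHGC4 chr5:141484948-141484987. The first CGCT of the window begins 58 bases before the RefSeq start in PCDHA11, 41 bases in PCDHA8 and 95 bases in PCDHAC2. The distance is 55 bases in PCDHB2, 81 bases in PCDHGB6, 70 bases in PCDHGC3 and 62 bases in PCDHGC4. For some genes, such as PCDHA11, PCDHAC2 and PCDHB2, the RefSeq start is not the GENCODE v29 start. RefSeq promoters were found for 47 of the 54 members, with 52 promoters in all. CGCT lay on the coding strand between 100 and 21 bases before the RefSeq start in 43 of these 52 promoters (82.7%). Over all genes it did so in 7988 of 35116 promoters (22.8%). On the other strand, searched as AGCG, it lay in 10 of the 52 (19.2%) and in 23.4% of all promoters. By cluster the coding strand held it in 12 of 13 alpha, 12 of 14 beta and 19 of 25 gamma promoters. Of the gamma promoters without it, all but that of PCDHGB2 are second promoters of genes whose other promoter holds it.

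The letters before the core differed between clusters. GTCGCT was found in 11 of 13 alpha promoters and in 1.14% of all promoters, GGCGCT in 11 of 14 beta promoters and in 3.91% of all, and GCCGCT in 13 of 25 gamma promoters and in 3.50% of all. These 3 forms were chosen after the sequences were seen. PCDHA11, the alpha member with the highest mean level, and PCDHA8, which stayed under 1 TPM, both carry the alpha form. The median G and C content of the 300-base promoters was 37.3% in the alpha, 40.8% in the beta and 47.3% in the gamma cluster, against 58.7% over all promoters. Among C-type members the PCDHAC2 promoter held 63% and the PCDHGC3 promoter 59%.

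Levels are in TPM, which scales the reads of a gene by transcript length and by library, so levels of different genes can be set side by side. Of the 54 members, 35 reached at least 1 TPM in at least 2 libraries and were tested (12 alpha, 11 beta and 12 gamma). The other 19 were not tested, and 18 members stayed under 1 TPM in every library. A mean of 5 TPM in some group was reached by 12 members, and 10 TPM by 9. PCDHB6 and PCDHB8 were listed at 0 in at least 1 library each. In bulk RNA a low level in every cell cannot be told apart from a high level in few cells, and fewer cells of a type cannot be told apart from less RNA per cell.

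Reads of the shared exons cannot be given to 1 alpha or gamma member by sequence alone. Among the 31-base words of the GENCODE v29 transcripts, the median share found in 1 gene only was 40.7% over alpha, 75.2% over beta and 54.8% over gamma members. It was 60.9% for PCDHGC3, 56.9% for PCDHGC4, 60.3% for PCDHGB6, 48.9% for PCDHGB7, 51.2% for PCDHAC2 and 0 for PCDHA14, which that annotation lists as a pseudogene. Some short annotated transcripts hold little sequence of their own: 7.12% in PCDHGC3-205 and 14.2% in PCDHGC4-204. How far reads of shared exons were placed on such transcripts was not tested, and the levels of single alpha and gamma members are uncertain to that extent. Overlapping and antisense transcripts carry the same limit, since use of the strand was not stated.

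The alpha cluster varied least. Its summed TPM was 42.0 and 48.3 in the hPSC libraries, 56.4 and 55.1 in aNE, 60.3 and 62.9 in pNE, and 76.4 and 77.7 in aNE_T. In the other 5 groups of day 4 it lay between 52.8 and 63.2. Both aNE_T libraries were above all 16 others.

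Beta members summed to 39.1 and 41.9 TPM in hPSC and 38.0 and 39.4 TPM in pNE, against 58.0 and 55.3 TPM in aNE. At day 4 the beta sum was 87.6 and 90.4 TPM in aNE_T, 65.3 to 74.3 TPM in aNE_M and aNE_H, and 53.2 to 60.3 TPM in the 3 groups from pNE. In each medium the 2 libraries from aNE were above the 2 from pNE.

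The gamma cluster had the widest range of the 3. Its sum was 44.3 and 39.5 TPM in hPSC, 76.0 and 72.0 TPM in aNE, and 69.0 and 72.3 TPM in pNE. In the forebrain medium it was 146 and 135 TPM from aNE and 106 and 115 TPM from pNE. In the midbrain medium it was 330 and 357 TPM from aNE and 227 and 233 TPM from pNE, and in the hindbrain medium 240 and 218 TPM from aNE and 140 and 134 TPM from pNE. No day-2 library overlapped any day-4 library. PCDHGC3 and PCDHGC4 together held 12.1 TPM ± 2.19 (SD, n = 2) in hPSC and 166 TPM ± 9.28 in aNE_M. Without both, the gamma sum still went from 29.8 TPM ± 1.20 in hPSC to 177 TPM ± 9.79 in aNE_M.

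**Figure D1:**
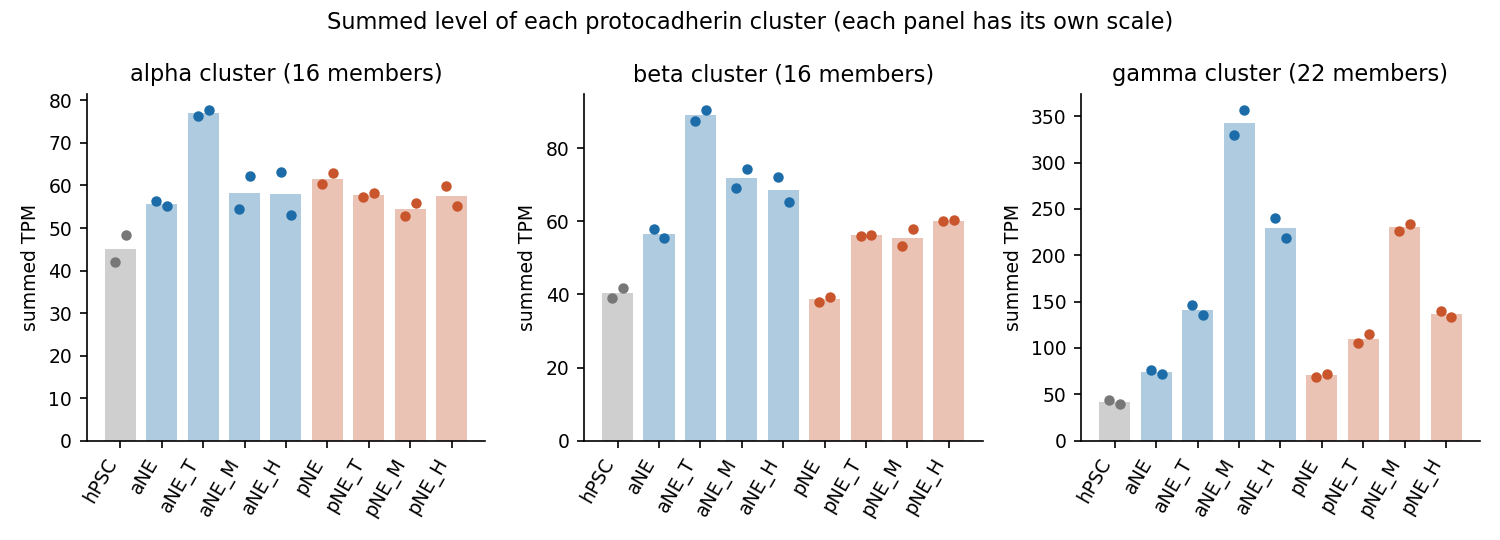
Summed TPM of the alpha, beta and gamma members (y axis, a separate linear scale from 0 in each panel) by group (x axis); bars are means of 2 libraries, points are libraries, grey is hPSC, blue is aNE and its derivatives, and orange is pNE and its derivatives. The gamma sum reached 343 TPM on average in aNE_M, while the alpha sum stayed between 45.1 and 77.0 TPM in group means.

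Within each cluster a few members carried most of the signal. PCDHB2, a beta protocadherin, held 54.6% to 69.5% of the beta sum and was the highest beta member in all 18 libraries. PCDHA11 was the highest alpha member in 17 libraries and held 25.0% to 32.3% of the alpha sum in those. In gamma, the 4 highest members of a library held 60.7% and 62.1% of the sum in hPSC and 89.4% and 89.2% in aNE_M. PCDHGB7, a B-type gamma protein, was highest of the gamma members in most libraries, PCDHGC4 in both aNE_M libraries and 1 pNE_M library, and PCDHGC3 in 1 hPSC library. Along the chromosome the 8 gamma members that start last, from PCDHGB6 to PCDHGC5, held 78.5% to 78.8% of the gamma sum in hPSC and 94.4% to 94.8% in aNE_M, a division chosen after the levels were seen. The 14 members before them summed to 8.49 to 20.0 TPM in any library.

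**Figure D2:**
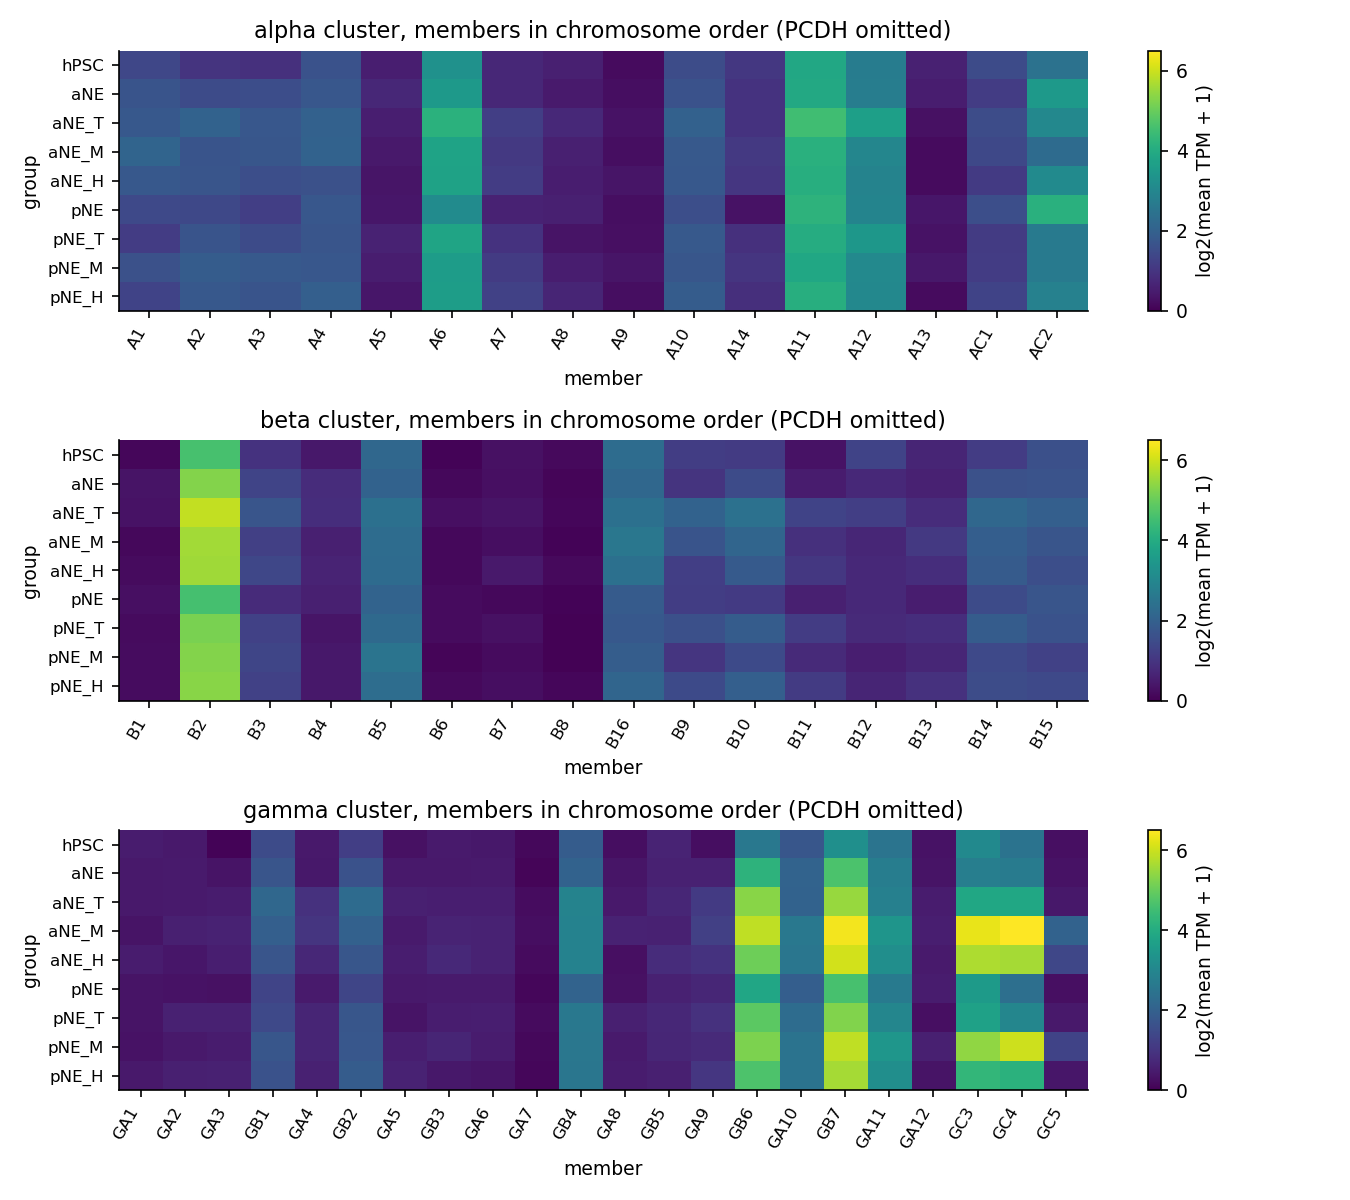
Group means of all 54 members as log2(mean TPM + 1) (colour), with members along each row in chromosome order and the 9 groups as rows. PCDHB2 stands out in the beta cluster, and PCDHGB6, PCDHGB7, PCDHGC3 and PCDHGC4 near the end of the gamma cluster reached means of 58.0, 82.7, 77.4 and 88.2 TPM in aNE_M.

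Differences between groups were tested with limma on log2(TPM + 1), with p-values adjusted by the Benjamini-Hochberg method over the 17033 genes tested. Calls needed both an adjusted p under 0.05 and a log2 fold change of 1 or more in size. This scale understates the change of low genes. The comparisons with hPSC share the hPSC libraries, and those with aNE or pNE share the day-2 libraries.

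From day 0 to day 2 the same 3 members were called higher in both origins, and none was called lower. They were PCDHGB6 and PCDHGB7, which are B-type gamma proteins, and PCDHAC2, a C-type alpha protein. This is 3 of 35 members (8.57%) in aNE against hPSC, where 7.36% of all tested genes were called higher and 6.19% lower. It is also 3 of 35 in pNE against hPSC, where 7.14% were called higher and 5.74% lower. The share of members called higher was thus near the background in both.

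PCDHGB6 was at 5.11 and 4.98 TPM in hPSC, 17.7 and 17.3 TPM in aNE, and 12.7 and 14.1 TPM in pNE. Its 3 groups did not overlap, with log2 fold changes of 1.61 ± 0.10 (SE, limma adjusted p = 7.2e-08) in aNE and 1.25 ± 0.10 (adjusted p = 7.7e-07) in pNE. PCDHGB7 was at 8.196 and 8.59 TPM in hPSC, 24.6 and 24.1 TPM in aNE, and 23.1 and 23.8 TPM in pNE. Both day-2 groups were above hPSC, by 1.43 ± 0.08 (limma adjusted p = 2.3e-08) and 1.38 ± 0.08 (adjusted p = 3.1e-08) on the log2 scale.

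PCDHAC2 was at 4.08 and 4.91 TPM in hPSC, 10.4 TPM in both aNE libraries, and 16.7 and 16.4 TPM in pNE. The log2 fold change was 1.06 ± 0.18 (limma adjusted p = 0.00054) in aNE and 1.68 ± 0.18 (adjusted p = 1.3e-05) in pNE. The aNE change lies close to the threshold of 1 and was 0.95 without the first hPSC library, which ends that call, as does median-ratio scaling (0.98). Between both origins PCDHAC2 differed by 0.62 ± 0.18 (adjusted p = 0.042), under the fold threshold.

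The C-type gamma members PCDHGC3 and PCDHGC4 were not called at day 2. PCDHGC3 was at 8.29 and 6.69 TPM in hPSC, 6.15 and 5.56 TPM in aNE, and 11.5 and 9.76 TPM in pNE. PCDHGC4 was at 5.32 and 3.83 TPM in hPSC, 5.92 and 5.03 TPM in aNE, and 5.09 and 3.34 TPM in pNE. None of their 4 differences from hPSC had an adjusted p under 0.05, and PCDHGC3 was 0.76 ± 0.21 higher in pNE than in aNE (log2 scale, limma adjusted p = 0.031).

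No member was called between pNE and aNE at day 2, where limma called 3.85% of all tested genes. At an unadjusted p under 0.05 there were 8 of 35 members, but the share of all genes at that cutoff was not computed. PCDHB2 came nearest in adjusted p: it was at 23.7 and 22.9 TPM in hPSC, 38.9 and 38.0 TPM in aNE, and 23.2 and 22.8 TPM in pNE. The aNE libraries were above all of the others, and pNE was lower than aNE by 0.72 ± 0.07 on the log2 scale (adjusted p = 1.5e-05), under the fold threshold. The difference of pNE from hPSC was -0.02 ± 0.07 (adjusted p = 0.89).

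At day 4 the C-type gamma genes PCDHGC3 and PCDHGC4 took very different levels in the 3 media. Both genes encode C-type gamma proteins, and PCDHGC4 is the gamma member known for neuronal survival. PCDHGC3 was at 13.3 and 13.97 TPM in aNE_T, 74.3 and 80.6 TPM in aNE_M, and 49.0 and 52.3 TPM in aNE_H. From pNE it was at 8.37 and 15.9 TPM in pNE_T, 39.2 and 45.2 TPM in pNE_M, and 16.9 and 20.8 TPM in pNE_H. In both origins the midbrain libraries were the highest and the forebrain libraries the lowest, with no overlap between media.

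PCDHGC4 was at 17.5 and 9.95 TPM in aNE_T, 84.8 and 91.6 TPM in aNE_M, and 54.8 and 42.4 TPM in aNE_H. In cells from pNE it was at 8.29 and 5.45 TPM in the forebrain medium, 67.5 and 58.0 TPM in the midbrain medium, and 18.1 and 15.5 TPM in the hindbrain medium. Again midbrain was above hindbrain and hindbrain above forebrain in each origin, without overlap.

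Against aNE at day 2, PCDHGC3 rose by 3.52 ± 0.21 in aNE_M (limma adjusted p = 3.9e-08), 2.91 ± 0.21 in aNE_H (adjusted p = 3.8e-07) and 1.09 ± 0.21 in aNE_T (adjusted p = 0.0015) on the log2 scale. PCDHGC4 rose by 3.79 ± 0.26 in aNE_M (adjusted p = 1.2e-07), 2.93 ± 0.26 in aNE_H (adjusted p = 2.1e-06) and 1.14 ± 0.26 in aNE_T (adjusted p = 0.0044). The last of these was 0.76 (adjusted p = 0.060) without the first aNE_T library and was not called, nor was it in a fit of the compared groups only (adjusted p = 0.079). Against pNE, PCDHGC4 rose by 3.63 ± 0.26 in pNE_M (adjusted p = 1.7e-07) and 1.79 ± 0.26 in pNE_H (adjusted p = 0.00012), and its difference in pNE_T was 0.59 ± 0.26 (adjusted p = 0.097). PCDHGC3 rose by 1.89 ± 0.21 in pNE_M (adjusted p = 1.4e-05), and it differed by 0.77 ± 0.21 in pNE_H and 0.11 ± 0.21 in pNE_T, both under the fold threshold.

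The order of media was tested within each origin. In cells from aNE, midbrain was above forebrain by 2.42 ± 0.21 for PCDHGC3 (limma adjusted p = 1.5e-06) and 2.65 ± 0.26 for PCDHGC4 (adjusted p = 3.8e-06). Hindbrain was above forebrain by 1.82 ± 0.21 (adjusted p = 3.7e-05) and 1.79 ± 0.26 (adjusted p = 0.00020). Hindbrain and midbrain differed by -0.60 ± 0.21 (adjusted p = 0.083) and -0.86 ± 0.26 (adjusted p = 0.041), neither of which was called. In cells from pNE, hindbrain was lower than midbrain by 1.13 ± 0.21 for PCDHGC3 (adjusted p = 0.0020) and 1.84 ± 0.26 for PCDHGC4 (adjusted p = 0.00020). The PCDHGC3 difference was -0.99 (adjusted p = 0.024) without the first pNE_H library and was then under the fold threshold.

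PCDHGC5, the last gene of the gamma cluster and also C-type, stayed low. It was at 2.86 and 3.38 TPM in aNE_M, 1.81 and 1.42 TPM in aNE_H, and 1.68 and 1.28 TPM in pNE_M. In every other library it was at most 0.413 TPM, so PCDHGC5 passed the filter for testing only through these day-4 groups. It rose by 1.72 ± 0.19 in aNE_M (limma adjusted p = 1.1e-05), 1.06 ± 0.19 in aNE_H (adjusted p = 0.00079) and 1.05 ± 0.19 in pNE_M (adjusted p = 0.00068). The aNE_H call ended without the second aNE (0.98) or the first aNE_H library (0.96), and the pNE_M call without the first pNE (0.98) or the first pNE_M library (0.93).

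**Figure D3:**
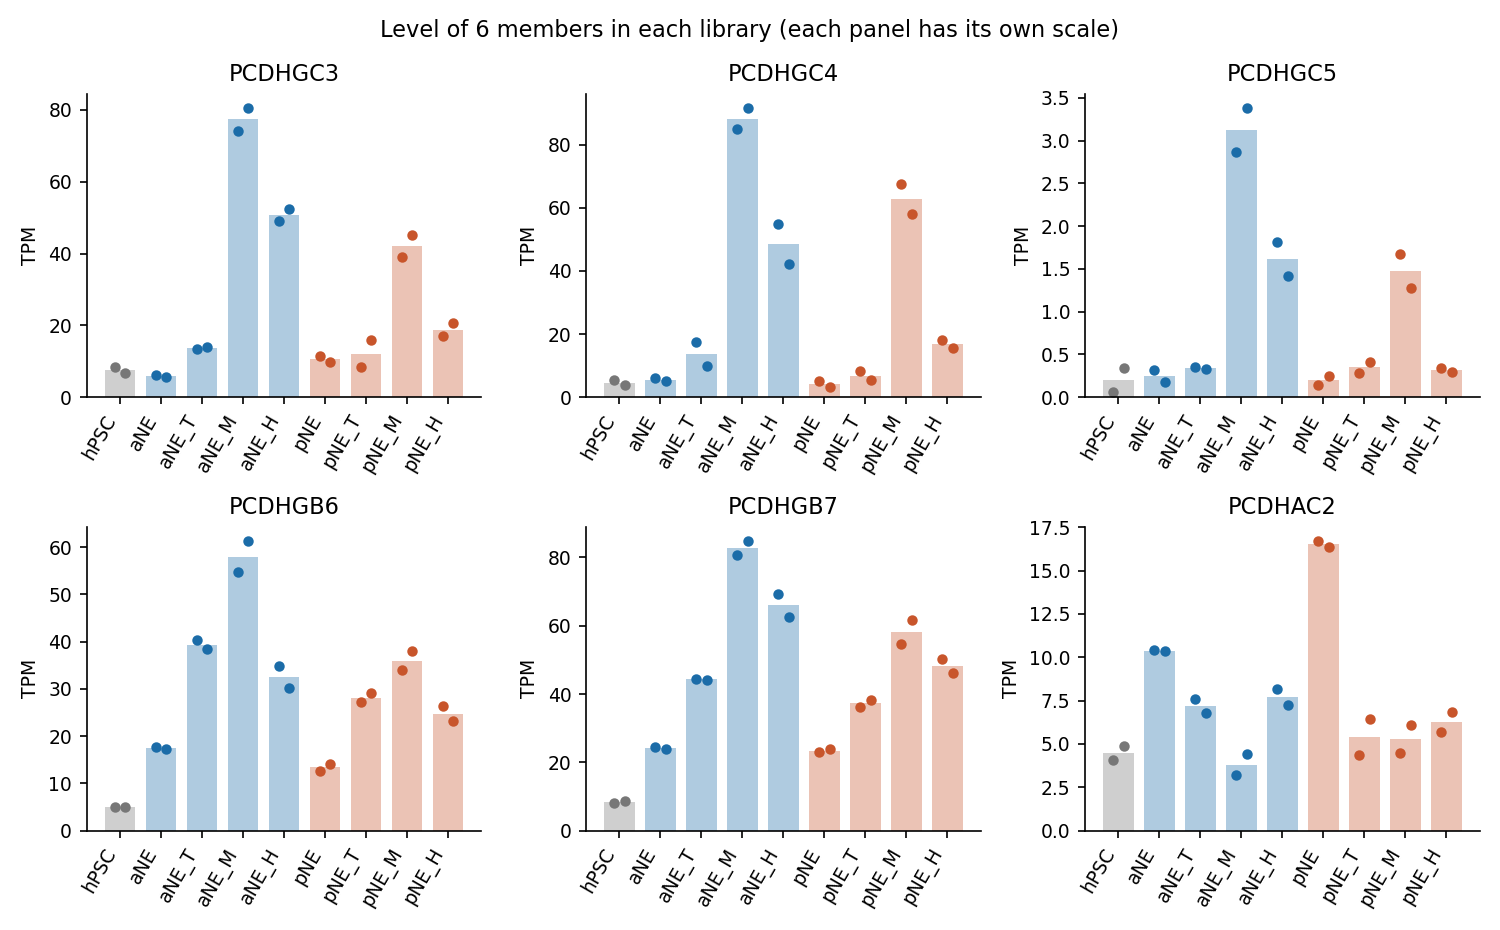
TPM of PCDHGC3, PCDHGC4, PCDHGC5, PCDHGB6, PCDHGB7 and PCDHAC2 (y axis, a separate linear scale from 0 in each panel) by group (x axis); bars are means of 2 libraries, points are libraries, grey is hPSC, blue is aNE and its derivatives, and orange is pNE and its derivatives. Midbrain libraries are the highest within each origin for the 5 gamma members, and PCDHAC2 is highest in pNE at 16.5 TPM.

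The B-type gamma members PCDHGB6 and PCDHGB7, which had risen by day 2, were higher again at day 4. PCDHGB6 was at 40.3 and 38.5 TPM in aNE_T, 54.8 and 61.2 TPM in aNE_M, and 34.8 and 30.3 TPM in aNE_H. From pNE it was at 27.3 and 29.04 TPM in pNE_T, 33.9 and 38.0 TPM in pNE_M, and 26.3 and 23.1 TPM in pNE_H. All 12 of these libraries were above the 4 of day 2.

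PCDHGB7 was at 44.6 and 44.2 TPM in aNE_T, 80.7 and 84.7 TPM in aNE_M, and 69.3 and 62.7 TPM in aNE_H. It was at 36.4 and 38.2 TPM in pNE_T, 54.8 and 61.6 TPM in pNE_M, and 50.3 and 46.1 TPM in pNE_H. In each origin its order was midbrain, hindbrain, forebrain without overlap, whereas for PCDHGB6 hindbrain was the lowest of the 3 media.

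Against day 2 PCDHGB6 rose by 1.67 ± 0.10 in aNE_M (limma adjusted p = 4.1e-08), 1.13 ± 0.10 in aNE_T (adjusted p = 2.7e-06), 1.36 ± 0.10 in pNE_M (adjusted p = 3.1e-07) and 1.02 ± 0.10 in pNE_T (adjusted p = 6.3e-06). PCDHGB7 rose by 1.72 ± 0.08 in aNE_M (adjusted p = 3.1e-09), 1.40 ± 0.08 in aNE_H (adjusted p = 3.7e-08), 1.27 ± 0.08 in pNE_M (adjusted p = 6.1e-08) and 1.01 ± 0.08 in pNE_H (adjusted p = 5.7e-07). The other 4 differences of this pair from day 2 were 0.65 to 0.86, under the fold threshold. The rise of PCDHGB6 in pNE_T was 0.95 without the first pNE and 0.97 without the second pNE_T library, and that of PCDHGB7 in pNE_H was 0.99 without the first pNE and 0.95 without the first pNE_H library, all just under the threshold.

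PCDHAC2 was the single member called lower at day 4 than at day 2. It was at 7.58 and 6.80 TPM in aNE_T, 3.22 and 4.40 TPM in aNE_M, and 8.15 and 7.26 TPM in aNE_H. From pNE it was at 4.38 and 6.44 TPM in pNE_T, 4.47 and 6.08 TPM in pNE_M, and 5.70 and 6.84 TPM in pNE_H. All day-4 libraries were below the day-2 libraries of their origin. It fell by 1.25 ± 0.18 in aNE_M (limma adjusted p = 0.00016), by 1.47 ± 0.18 in pNE_T (adjusted p = 4.8e-05), by 1.49 ± 0.18 in pNE_M (adjusted p = 3.3e-05) and by 1.27 ± 0.18 in pNE_H (adjusted p = 0.00013). In aNE_T and aNE_H its differences were -0.48 ± 0.18 and -0.39 ± 0.18, with adjusted p of 0.069 and 0.13.

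Counts of called members among the 35 tested were as follows, where rose and fell mean called higher and called lower. In aNE_T against aNE 4 members rose (PCDHGC3, PCDHGC4, PCDHGB6 and PCDHB9) and none fell, where 4.61% of all tested genes were called higher and 4.42% lower. PCDHB9, a beta member named after its values were seen, went from 0.912 and 1.00 TPM to 2.71 and 3.61 TPM, a rise of 1.08 ± 0.21 (limma adjusted p = 0.0017). In aNE_M against aNE 5 members rose and 1 fell (4.34% of all genes called higher, 7.63% lower), and in aNE_H against aNE 4 rose and none fell (3.24% higher, 6.83% lower).

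In pNE_T against pNE 1 member was called higher and 1 lower, with 4.68% of all genes called higher and 5.56% lower. In pNE_M against pNE 5 members were called higher and 1 lower (4.87% and 7.85% of all genes). In pNE_H against pNE 2 members were called higher and 1 lower (4.47% and 7.80% of all genes). The share of members called higher was 11.4% to 14.3% in the 3 comparisons from aNE and in pNE_M 14.3%, above the background. It was 2.86% in pNE_T and 5.71% in pNE_H, near the background. The shares in aNE_M, aNE_H and pNE_M include PCDHGC5, which passed the filter only through these 3 groups. They were thus partly fixed by the filter. Apart from PCDHB9 in aNE_T, every member called higher was a gamma member, and no alpha member was called higher. This does not mean that other members stayed level. In aNE_T against aNE 10 of 12 alpha and 11 of 11 beta members lay above 0. PCDHA12 rose there by 0.91 ± 0.16 (limma adjusted p = 0.00095) and PCDHB2 by 0.61 ± 0.07 (adjusted p = 2.6e-05), both under the fold threshold. In each of the 6 comparisons 0 or 1 of 35 members was called lower. The median log2 fold change over the 35 members was 0.24 to 0.47, against -0.08 to 0 over all tested genes. All 12 tested gamma members were above 0 in 5 of the 6 comparisons and 11 in aNE_T against aNE. Among them PCDHGA4, PCDHGA9 and PCDHGC5 passed the filter only through day-4 libraries, as did PCDHA7, PCDHB11 and PCDHB13 in the other clusters. Their rise from day 2 was thus partly fixed by the filter, which also bears on the medians. The share of all tested genes above 0 was not computed.

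**Figure D4:**
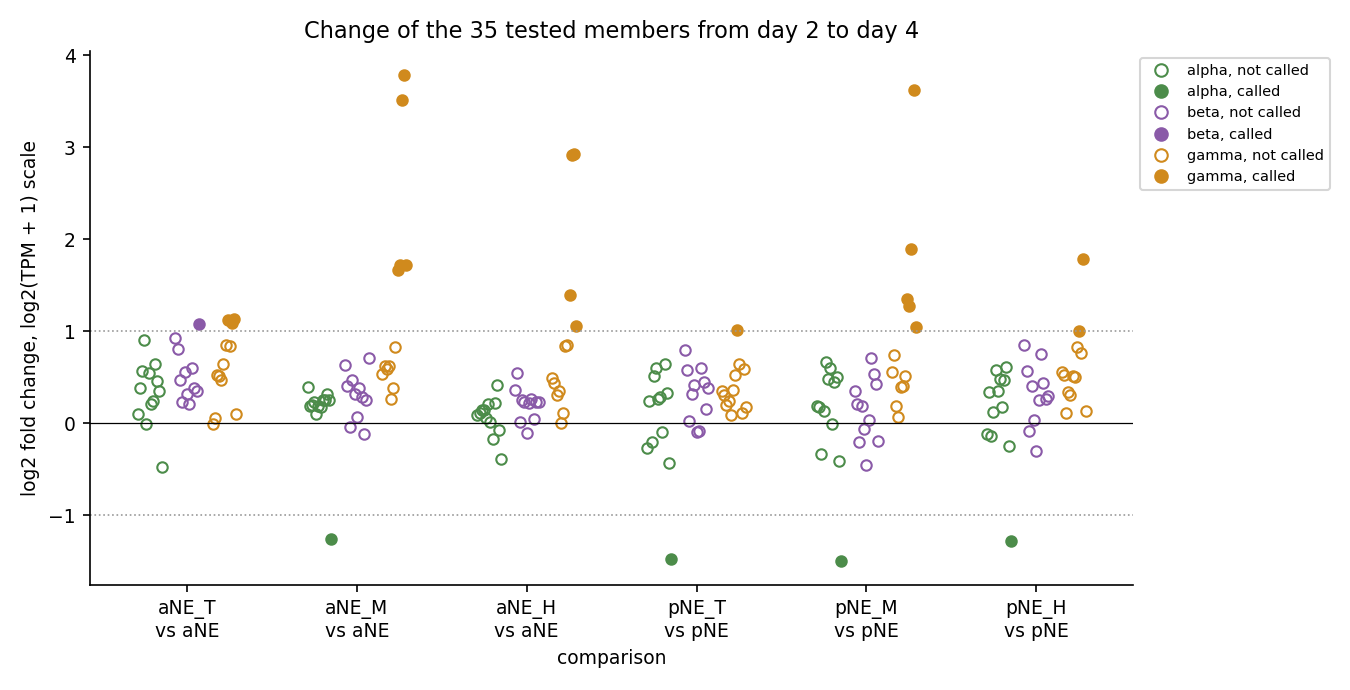
Log2 fold change on the log2(TPM + 1) scale (y axis) of the 35 tested members in the 6 comparisons of day 4 with day 2 (x axis); filled points are called members and open points are not, with alpha in green, beta in purple and gamma in orange, and dotted lines at the fold threshold of 1. The filled points below 0 are PCDHAC2, and the filled points above 2 are PCDHGC3 and PCDHGC4.

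Between media, 3 members were called higher in aNE_M than in aNE_T (PCDHGC3, PCDHGC4 and PCDHGC5), where 3.50% of all genes were called higher. Of these, PCDHGC5 passed the filter only through aNE_M, aNE_H and pNE_M, so its call was partly fixed by the filter. In aNE_H 2 members were called higher than in aNE_T (1.78% of all genes called higher). From pNE, 2 were higher in pNE_M than in pNE_T (3.31% of all genes called higher), and PCDHGC4 alone was higher in pNE_H than in pNE_T (1.65% called higher). PCDHGC3 and PCDHGC4 were lower in pNE_H than in pNE_M, where 2.99% of all genes were called lower. The PCDHGC4 difference between pNE_H and pNE_T, 1.20 ± 0.26 (limma adjusted p = 0.0053), was 0.93 (adjusted p = 0.065) without the second pNE_T library. In a fit of the compared groups only, 3 of these calls ended: that one (adjusted p = 0.11), PCDHGC4 in aNE_H against aNE_T (adjusted p = 0.058) and PCDHGC3 in pNE_M against pNE_T (adjusted p = 0.058). No member was called between aNE_H and aNE_M, where limma called 4.92% of all genes. There 7 members had an unadjusted p under 0.05, a cutoff for which the share of all genes was not computed.

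No alpha or beta member was called between media. PCDHAC2 was lower in aNE_M than in aNE_T by 0.78 ± 0.18 (limma adjusted p = 0.0058) and higher in aNE_H than in aNE_M by 0.86 ± 0.18 (adjusted p = 0.0061), under the fold threshold. PCDHA11 was at 20.5 and 22.6 TPM in aNE_T and between 12.7 and 18.4 TPM in all other libraries. PCDHA6 was at 16.5 and 17.3 TPM in aNE_T, 7.26 to 8.98 TPM in hPSC and pNE, and 9.67 to 13.6 TPM elsewhere. PCDHA12 was at 11.1 and 12.1 TPM in aNE_T and 4.58 to 10.01 TPM elsewhere. For these 3 alpha members both aNE_T libraries were thus above all others.

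PCDHB2 was likewise highest in aNE_T, at 59.4 and 58.7 TPM, against 44.6 to 48.6 TPM in aNE_M and aNE_H. Of the 16 beta members 9 had their highest group mean in aNE_T, and of the 22 gamma members 12 had it in aNE_M. Of the 16 alpha members 6 had it in aNE_T, more than in any other group. These counts include members whose highest mean was under 1 TPM: PCDHB4, PCDHB6 and PCDHA8 in aNE_T, and PCDHGA3, PCDHGA4, PCDHGA6, PCDHGA7 and PCDHGA8 in aNE_M. The share of all genes highest in these groups was not computed. The remaining named members were low: PCDHA4 and PCDHA10 stayed between 1.504 and 3.58 TPM, PCDHB5, PCDHB16, PCDHB10, PCDHB14 and PCDHB15 between 0.97 and 5.41 TPM, and PCDHGA11 and PCDHGB4 between 2.50 and 10.5 TPM.

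Cells from pNE were compared with cells from aNE in the same medium. In the hindbrain medium PCDHGC3 was lower from pNE by 1.39 ± 0.21 (limma adjusted p = 0.00036) and PCDHGC4 by 1.47 ± 0.26 (adjusted p = 0.00099) on the log2 scale. These 2 of 35 members were called, where 3.92% of all tested genes were called higher and 2.91% lower.

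No member was called in the forebrain medium (7.77% of all genes called by limma) or in the midbrain medium (5.74% called). At an unadjusted p under 0.05 there were 15 and 12 of 35 members. The share of all genes at that cutoff was not computed, so whether these counts exceed it is not known. In the forebrain medium 4 of 35 members lay above 0, and the median was -0.34, against -0.05 over all tested genes. The midbrain medium gave 8 of 35 above 0 with a median of -0.26, against -0.04 over all genes. In the hindbrain medium 15 of 35 lay above 0 with a median of -0.07, against -0.04. These medians rest on 1 pair of groups each and carry no test.

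PCDHB2 was lower from pNE than from aNE by 0.72 ± 0.07 in the forebrain medium (limma adjusted p = 6.3e-06), by 0.30 ± 0.07 in the midbrain medium (adjusted p = 0.0092) and by 0.23 ± 0.07 in the hindbrain medium (adjusted p = 0.034). All 3 differences were under the fold threshold, and the libraries of both origins did not overlap in any medium. PCDHGC3 differed by -0.86 ± 0.21 in the midbrain medium (adjusted p = 0.013), with 74.3 and 80.6 TPM from aNE against 39.2 and 45.2 TPM from pNE.

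**Figure D5:**
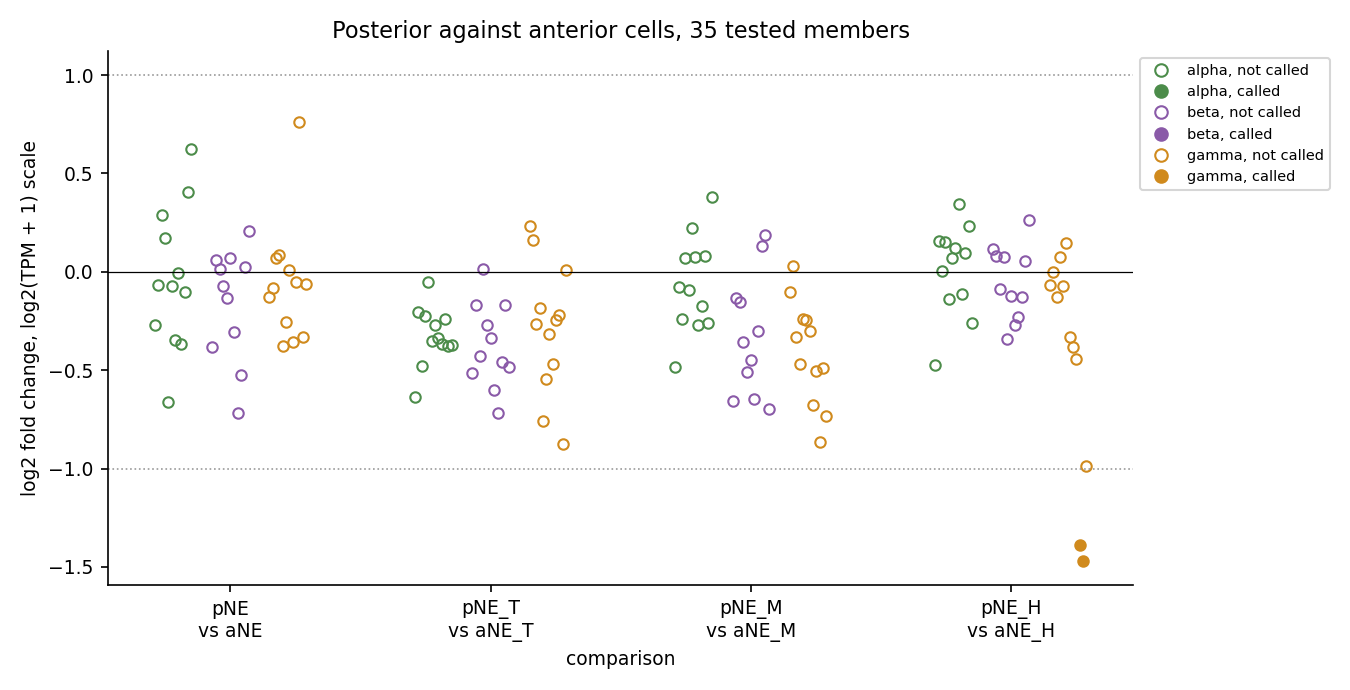
Log2 fold change of posterior against anterior cells on the log2(TPM + 1) scale (y axis) for the 35 tested members at day 2 and in the 3 media of day 4 (x axis); filled points are called members and open points are not, with alpha in green, beta in purple and gamma in orange, and dotted lines at the fold threshold of 1. The filled points are PCDHGC3 at -1.39 and PCDHGC4 at -1.47 in the hindbrain medium.

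Whether the change from day 2 to day 4 differed between origins was tested as an interaction, the change from pNE minus the change from aNE. For PCDHGC3 it was -1.62 ± 0.30 in the midbrain medium (limma adjusted p = 0.0025) and -2.15 ± 0.30 in the hindbrain medium (adjusted p = 0.00027). For PCDHGC4 it was -1.14 ± 0.36 in the hindbrain medium (adjusted p = 0.049) and -0.16 ± 0.36 in the midbrain medium (adjusted p = 0.84). The PCDHGC4 call was lost in 5 other settings, with adjusted p of 0.0636 to 0.0975, and on leaving out either aNE, either aNE_H, either pNE_H or the first pNE library, with adjusted p of 0.0532 to 0.169. No member was called in the forebrain medium, where limma called 7.14% of all genes. There 5 members had an unadjusted p under 0.05, a cutoff for which the share of all genes was not computed. One member was called in the midbrain medium (3.33% of all genes called higher, 3.69% lower) and 2 in the hindbrain medium (3.91% higher, 3.92% lower).

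Markers of other cell types moved with some of these levels. The summed TPM of 8 neural crest markers was 143 and 154 in aNE_M, 109 and 102 in aNE_H, 96.6 and 81.1 in pNE_M and 45.4 and 46.1 in pNE_H, against 21.99 to 34.4 in the other day-2 and day-4 libraries and 90.05 and 94.7 in hPSC. Most of it in aNE_M was PAX3, a factor of dorsal neural tube and neural crest, at 125 TPM, while SOX10, a defining crest factor, was at 0.65 TPM there and at 14.5 TPM in pNE_H. The summed TPM of 10 neural progenitor markers was 2981 to 3673 in the 4 midbrain libraries and 1206 to 2448 in the other day-4 libraries, most of it the filament gene VIM in the midbrain medium. Most of that list did not move with VIM: in aNE_M against aNE_T 1 of 10 was called higher and 6 lower, and in pNE_M against pNE_T 2 were higher and 4 lower, with PAX6 and SOX2, progenitor transcription factors, among the lower ones in both. Of the 8 crest markers, 2 were called higher and 1 lower in aNE_M against aNE_T, and 3 higher and 1 lower in pNE_M against pNE_T.

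The sum of 13 neuron markers was 2147 and 2329 TPM in pNE_H, where NEFM, a neurofilament gene, held 1886 TPM, and 340 to 789 TPM in the other libraries, while DCX, which marks young neurons, was at 1.71 TPM or less in every group mean. This list did not move together either. Of 12 tested, 2 were called higher and 3 lower in pNE_H against aNE_H, and also 2 higher and 3 lower in pNE_H against pNE. The sum of 8 mesenchyme and mesoderm markers was 79.9 and 94.6 TPM in aNE_T, 217 to 298 TPM in aNE_M and aNE_H, and 314 to 445 TPM in the groups from pNE at day 4. Much of the last was the collagen gene COL1A2, at 246 to 407 TPM in those group means, and the list did not move together: of 7 tested, 1 was called higher and none lower in pNE_T against aNE_T, 2 higher and 1 lower in pNE_M against aNE_M, and 1 higher and 1 lower in pNE_H against aNE_H. The part of these cell types in the protocadherin levels was not tested. The 8 pluripotency markers summed to 4688 and 4719 TPM in hPSC, 447 to 583 TPM at day 2 and 73.9 to 133 TPM at day 4.

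Of 18 genes known to act on protocadherin promoters 1 was called at day 2. DNMT3B, a DNA methyltransferase that sets new methylation, was at 1265 and 1292 TPM in hPSC, 413 and 429 TPM in aNE, and 358 and 413 TPM in pNE. It fell by 1.60 ± 0.08 (limma adjusted p = 1.0e-08) and 1.73 ± 0.08 (adjusted p = 4.8e-09), and it was called lower again in all 6 comparisons of day 4 with day 2. It was the one gene of the list called in those comparisons, and it was also lower in pNE_T than in aNE_T by 1.45. CTCF, an insulator protein known to bind many protocadherin promoters, was at 49.6 to 59.5 TPM in group means, and SMCHD1, a chromatin protein that represses the clusters, at 21.0 to 38.7 TPM.

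Of 15 genes for cleavage and signalling of protocadherins 2 were called higher in aNE than in hPSC and 1 in pNE, and none was called between origins. FYN, a kinase that clustered protocadherins are known to meet, was at 66.7 and 71.6 TPM in hPSC and 155 and 168 TPM in aNE, and rose by 1.21 in aNE and 1.49 in pNE on the log2 scale. PTK2B, a focal adhesion kinase relative, rose by 1.29 in aNE. Of 14 tested genes beside the clusters 1, RELL2, was called in aNE against hPSC, lower by 1.35, and none in pNE against hPSC or between origins.

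Non-clustered protocadherins lie outside these clusters and have no shared constant exons. Of 11 tested, 3 rose from hPSC to aNE (PCDH7, PCDH18 and PCDH17) and 3 from hPSC to pNE (PCDH19, PCDH7 and PCDH17). PCDH19, an adhesion gene mutated in an inherited epilepsy, was at 1.20 and 1.38 TPM in aNE and 30.5 and 36.4 TPM in pNE, a difference of 3.91 on the log2 scale (limma adjusted p = 6.8e-08). PCDH18 was at 45.9 and 42.8 TPM in aNE against 11.9 and 13.7 TPM in pNE and was lower in pNE by 1.72 (adjusted p = 2.9e-06). Between origins at day 4, 4, 3 and 6 of 11 were called in the forebrain, midbrain and hindbrain medium, beside 0, 0 and 2 of the 35 clustered members. The difference between both kinds of gene was not tested.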

How the data were processed

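RNA of 18 libraries was selected with poly-T beads and primed with random hexamers, per the labels' protocols. The authors deposited 1 table of TPM values per gene and library. The submitters' processing notes name bcl2fastq, FastQC, Trim Galore, kallisto, deepTools and the build hg38 without versions, and the annotation is not given in the sources used here. Every column summed to 1000000 within rounding, so depth is unknown and no counting intervals are given. Pearson's r across tested genes between replicates was 0.982 to 0.987.

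Values were analysed as log2(TPM + 1) in limma 3.58.1 (R 4.3.3), with 1 mean per group over all 18 libraries, 9 residual degrees of freedom and a variance trend, for genes that reached 1 TPM in 2 or more libraries. The fit was tested on simulated data. Tests are two-sided. Intervals after ± are SE for log2 values and SD for TPM. Cluster sums carry no test. Named members are the 6 highest of each cluster and up to 3 called members of each comparison with at least 1 TPM in the higher group. Of each gene list, counts and up to 3 called genes are named. The gene family was proposed as a subject, and the gene lists were chosen, with earlier results of these data known, although the symbol rule itself reads no value. Shared 31-base words were counted over GENCODE v29 transcripts, and promoters came from RefSeq.

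Other settings tried were leaving out each library in turn, a replicate block, quantile normalization, median-ratio scaling, fitting the compared groups only, testing all genes without the filter, and adding 0.1 in place of 1.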

Additional observations from a re-analysis of the deposited data

Results flagged for a closer look

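The change from day 2 to day 4 differed between origins past the threshold, tested as an interaction, for 3 results. The change of PCDHGC3 from day 2 to day 4 was smaller from pNE than from aNE by 1.62 ± 0.30 in the midbrain medium (log2 scale, -1.62, limma adjusted p = 0.0025) and by 2.15 ± 0.30 in the hindbrain medium (-2.15, adjusted p = 0.00027). The corresponding value of PCDHGC4 in the hindbrain medium was -1.14 ± 0.36 (adjusted p = 0.049), and it was not called in 5 of the 6 other settings. The mean PCDHGC3 level at day 2 was 5.86 TPM for aNE against 10.6 TPM for pNE. Plating density differed between origins at day 4 and cannot be told apart from origin.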

How the results depend on the processing

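No result changed direction. With a pseudocount of 0.1 the count of called members was 5 in aNE against hPSC, 5 in pNE against hPSC, 1 in pNE_T against aNE_T, 1 in pNE_M against aNE_M, 8 in aNE_T against aNE, 4 in pNE_T against pNE, 6 in pNE_H against pNE, 4 in aNE_H against aNE_T, 1 in aNE_H against aNE_M, 2 in the forebrain interaction and 1 in the hindbrain interaction. The hindbrain interaction also gave 1 with no filter, median-ratio scaling, quantile normalization and the compared groups only, and the midbrain interaction gave 2 with quantile normalization. The compared groups only, a fit with fewer libraries, gave 1 in aNE_H against aNE_T, 1 in pNE_M against pNE_T and 0 in pNE_H against pNE_T. Median-ratio scaling gave cluster sums of 54.2 (alpha, aNE), 74.2 (alpha, aNE_T), 85.7 (beta, aNE_T), 62.9 (beta, pNE_H), 236 (gamma, pNE_M) and 143 TPM (gamma, pNE_H), and put PCDHAC2 at 0.98 in aNE against hPSC. It and quantile normalization moved the median of all genes by under 0.1.

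Leaving out each library in turn gave 0 to 1 called members in pNE_T against aNE_T, 0 to 1 in aNE_H against aNE_M, 1 to 2 in pNE_T against pNE, 1 to 3 in pNE_H against pNE_M, 0 to 2 in the forebrain interaction and 1 to 2 in the hindbrain interaction. The cause of these differences was not tested. Of 45 calls of named members 9 were lost in at least 1 such fit. With the replicate number as a block the counts of called members were within 1.5 times of those reported, for example 6 in aNE_M against aNE. Same-numbered libraries did not deviate together (correlations of -0.09 to 0.08 over 36 pairs of groups), so the numbers were not taken as pairs. Unknown depth limits what can be said of members under 1 TPM.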
